A study of Mus musculus with 12 samples.

Results

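The genes described here are the cytochrome P450 genes of families 1 to 3 in mouse liver, apart from Cyp1a2, Cyp2e1 and Cyp2d9. Their symbols are Cyp1, Cyp2 or Cyp3 followed by a subfamily letter and a number, and 56 of the 50499 genes in the deposited table have such a symbol. After a filter on low counts 33 of the 56 could be tested, among 11934 genes tested in all. RNA was sequenced from livers of wild-type male C57Bl/6NCrl mice that were put at 6 weeks of age on either a Western diet with sugar water or chow with plain water. After 12 weeks on the diet each mouse received AAV8 particles by tail vein, and livers were collected 12 weeks later. The vector carried the hepatocyte-directed TBG promoter and either a sequence meant to silence Aatf (siAATF) or no insert (null), so the controls also carry AAV8. There were 4 groups of 3 libraries, called Western siAATF, Western null, chow siAATF and chow null. Replicates carry the numbers 1 to 3. The labels leave it unsaid whether each came from its own animal, so the spread behind the p-values may be technical.

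Cytochromes P450 are heme enzymes that insert an oxygen atom into drugs, toxins, steroids, fatty acids and bile acids, using electrons that come from NADPH through P450 oxidoreductase. Families 1 to 3 hold most of the drug-metabolising forms of the liver. Their genes are switched on by ligand-sensing factors, namely the aryl hydrocarbon receptor for Cyp1 genes, the constitutive androstane receptor (CAR, Nr1i3) for many Cyp2b and Cyp2c genes and the pregnane X receptor (PXR, Nr1i2) for Cyp3a genes. In rodents, growth hormone acting through Stat5b also sets sex differences, so that some Cyp2a, Cyp2b and Cyp2c genes are normally read more in females. Many of the genes stand in tandem clusters of close copies.

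The 12 libraries held 1646853 to 13469819 counts, and the 18S ribosomal RNA gene took 0.871% to 50.8% of them. Levels are given below as read counts scaled to a common library size (CPM), computed with TMM normalisation. A count of 3 over a library, taken as the detection floor, was 0.185 to 1.69 CPM. Floors, and the intervals of ratios called counting intervals, cover counting error only. A fold given as at least sets the summed counts of the higher group against 3 counts for a group with none. It leaves out the counting error of that sum and the spread between libraries. Intervals of log2 fold changes were built from the standard errors of the fit, which include the spread between libraries of a group. Reads carry no molecular identifiers. Aatf itself was counted at 27.0, 27.5 and 28.2 CPM in Western siAATF and 27.6, 21.1 and 30.0 CPM in Western null livers, a log2 fold change of 0.06 ± 0.25 (SE; quasi-likelihood test in edgeR, p adjusted by Benjamini-Hochberg = 0.953). It stood at 39.2, 24.6 and 40.5 CPM in chow siAATF and 36.8, 26.5 and 31.6 CPM in chow null livers (log2 fold change 0.11 ± 0.24, same test, adjusted p = 1). Aatf was therefore not lower in the libraries labelled siAATF, so vector effects below are differences between labels. Hepatocyte markers (7 of 8 listed were in the table) summed to 47100 to 61200 CPM in Western siAATF, 47300 to 54400 in Western null, 79900 to 81200 in chow siAATF and 71800 to 105000 CPM in chow null. In these bulk samples fewer hepatocytes and less RNA per hepatocyte cannot be told apart.

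Counts were made over each gene's whole span, introns included, on build GRCm39. How reads that fit several copies were treated is not given in the sources used here, so values of genes with close copies are uncertain. In the reference transcripts, 72.1% of the 50-base words of Cyp2c40 were found in other genes, most often in Cyp2c69. The share was 40.8% for Cyp2a5, 38% for Cyp2a4, 30.7% for Cyp2c50, 30.1% for Cyp2c37, 25.7% for Cyp2c54 and 11.2% for Cyp2b9. It was 0% for Cyp2j9, Cyp2c23, Cyp1b1, Cyp3a13 and Cyp2f2.

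The promoters show how near the copies are in a short window before their starts. Likeness there does not measure how far counts could be exchanged, which depends on the counted spans. RefSeq promoter entries (build GRCm38.p6, not the build of the counts) matched 47 of the 56 genes. Cyp2a4 and Cyp2a5 are shown because both were higher in Western null than in chow null livers, and their counts could be exchanged. The windows are the 250 bases before each start, at chr7:26306942-26307191 for Cyp2a4 and chr7:26835089-26835338 for Cyp2a5, both on the plus strand. Capitals mark bases that differ from, or have no partner in, the other copy.
Cyp2a4: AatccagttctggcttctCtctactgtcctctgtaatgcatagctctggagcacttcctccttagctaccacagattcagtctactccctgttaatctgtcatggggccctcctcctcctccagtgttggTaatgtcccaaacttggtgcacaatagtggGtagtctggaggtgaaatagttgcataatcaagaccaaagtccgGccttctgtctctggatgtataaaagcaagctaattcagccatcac
Cyp2a5: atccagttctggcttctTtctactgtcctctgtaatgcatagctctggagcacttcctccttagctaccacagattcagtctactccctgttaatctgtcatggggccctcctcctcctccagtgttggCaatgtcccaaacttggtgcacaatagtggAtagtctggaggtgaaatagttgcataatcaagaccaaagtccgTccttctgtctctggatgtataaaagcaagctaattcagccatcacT
These windows were identical at 98.4% of aligned bases, with 4 mismatches. Cyp2b9 (chr7:26173159-26173408, plus strand) and Cyp2b13 (chr7:26061245-26061494, plus strand) are shown, chosen after their values were seen, because their counts were high in some of the same libraries.
Cyp2b9: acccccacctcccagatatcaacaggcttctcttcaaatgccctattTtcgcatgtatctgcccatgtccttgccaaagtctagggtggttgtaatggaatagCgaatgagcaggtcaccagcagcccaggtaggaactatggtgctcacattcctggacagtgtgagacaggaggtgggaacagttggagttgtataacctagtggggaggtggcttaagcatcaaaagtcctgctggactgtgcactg
Cyp2b13: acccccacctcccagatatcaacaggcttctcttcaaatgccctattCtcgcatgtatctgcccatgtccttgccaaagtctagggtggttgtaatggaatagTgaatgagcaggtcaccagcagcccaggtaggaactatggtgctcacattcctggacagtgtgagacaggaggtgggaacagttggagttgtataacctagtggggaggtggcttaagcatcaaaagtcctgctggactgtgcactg
They had 2 mismatches and were 99.2% identical, while 10.8% of the 50-base words of Cyp2b9 were found in Cyp2b13. Cyp2c37 (chr19:39992174-39992423, plus strand) and Cyp2c50 (chr19:40089429-40089678, plus strand) were both lower in Western null livers.
Cyp2c37: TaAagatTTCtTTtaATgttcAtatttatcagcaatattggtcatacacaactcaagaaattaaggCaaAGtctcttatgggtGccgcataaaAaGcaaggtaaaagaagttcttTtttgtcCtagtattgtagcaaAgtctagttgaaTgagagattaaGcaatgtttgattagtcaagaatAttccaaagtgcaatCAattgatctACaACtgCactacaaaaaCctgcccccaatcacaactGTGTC
Cyp2c50: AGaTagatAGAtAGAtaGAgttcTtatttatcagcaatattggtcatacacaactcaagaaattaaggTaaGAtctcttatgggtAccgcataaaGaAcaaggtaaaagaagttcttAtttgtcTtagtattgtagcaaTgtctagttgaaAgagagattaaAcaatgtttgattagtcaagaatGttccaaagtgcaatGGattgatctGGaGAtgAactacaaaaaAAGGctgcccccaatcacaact
These windows were 87.8% identical over aligned bases, with 30 mismatches.

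A short motif search was made in the windows on both strands, overlaps between motifs allowed. The letters TATAAA stood in 20 of the 47 windows (42.6%), against 13% of all 27025 promoters, with Cyp2a4 and Cyp2a5 among the 20. The nuclear receptor half-site AGGTCA stood in 15 (31.9%), against 13.8% of all promoters, including those of Cyp2b9 and Cyp2b13. The half-site AGTTCA stood in 5 (10.6%, Cyp2c50 among them), against 11.9%. For the aryl hydrocarbon receptor core GCGTG the counts were 8 (17%) against 28.2%, and for the Stat5 element TTCNNNGAA 2 (4.26%) against 7.18%. These are matches of letters in a short window and were not tested.

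Of the 23 genes that were not tested, Cyp2j12, Cyp2b23, Cyp2b19, Cyp2g1, Cyp2c65 and Cyp2c38 were listed at 0 in all 12 libraries. Cyp2b19, Cyp2g1 and Cyp2c38 lie inside the span of another gene. The other 17 had between 1 count (Cyp2w1 and Cyp2d34) and 109 counts (Cyp2j11) over all libraries, with Cyp2j8 at 104, Cyp2c69 at 78, Cyp1a1 at 72, Cyp2b13 at 39, Cyp2d12 at 37, Cyp2t4 at 32 and Cyp2d11 at 28. Cyp2c66 had 11 counts, Cyp2s1 10, Cyp3a44 6, and Cyp2j13, Cyp2j7, Cyp3a57 and Cyp3a16 had 2 each. Among the 33 tested genes, 11 of 15 Cyp2c, 5 of 8 Cyp2d, 4 of 4 Cyp2a, 4 of 7 Cyp3a, 3 of 8 Cyp2j and 2 of 5 Cyp2b genes passed the filter, with Cyp1b1, Cyp2f2, Cyp2r1 and Cyp2u1. Because whole spans of unequal length were counted, CPM values are compared between groups and not between genes.

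Western null against chow null livers addresses what the diet changed under the control vector. Most Cyp2c genes that could be tested were lower on the Western diet, and 3 of 4 Cyp2a genes were higher. By the edgeR test 14 of the 33 genes had an adjusted p under 0.05, 4 higher and 10 lower. Over all 11934 genes 13.2% passed, 6.44% higher and 6.77% lower, against 12.1% and 30.3% of these P450 genes. The median log2 fold change was -0.47 over the 33 genes and -0.03 over all genes. Over the 7 tested hepatocyte markers it was -0.60, with 7 below 0. Libraries of the groups did not overlap for 15 genes lower in Western null (45.5%, against 17.0% of all genes) and 6 higher (18.2%, against 17.7%).

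**Figure D1:**
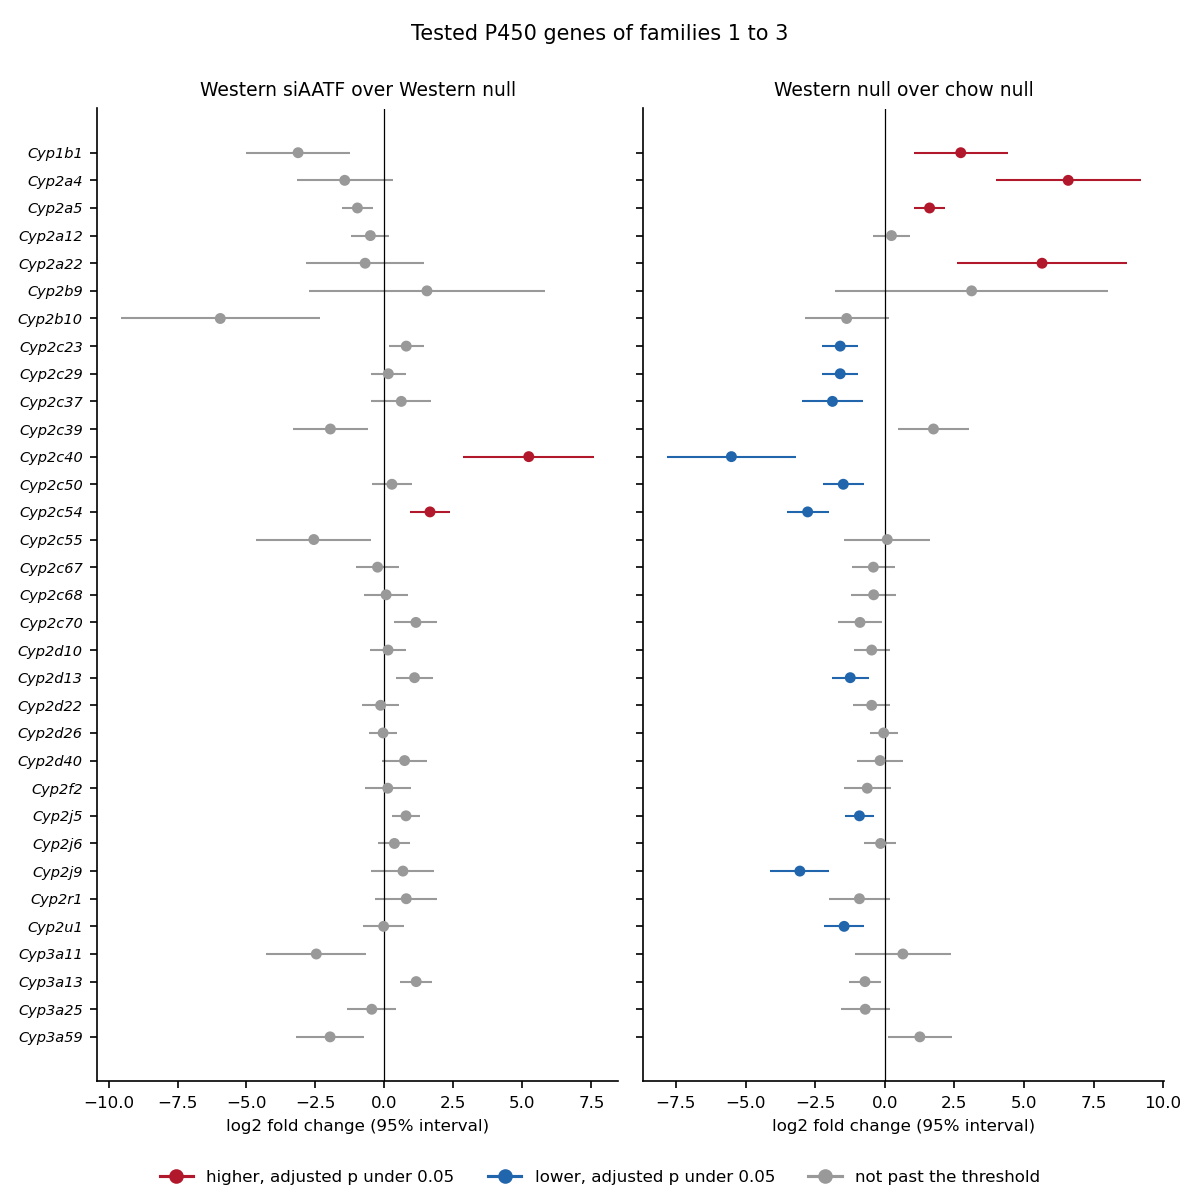
Log2 fold changes of the 33 tested P450 genes for Western siAATF over Western null (left) and Western null over chow null (right), with bars for 95% intervals and colours for genes past the adjusted p threshold of 0.05. In the right panel 10 genes are lower and 4 higher; in the left panel Cyp2c40 and Cyp2c54 are higher. Both panels share the Western null libraries, and fold changes of Cyp2b10, Cyp2c40 and Cyp2a4 depend on the fit where a group had 0 to 2 counts.

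In the Cyp2c subfamily 6 of 11 tested genes fell and 0 rose, with a median log2 fold change of -1.49, against 4 lower and 4 higher of the 22 genes outside it (median -0.32). Cyp2c54, an enzyme that oxidises arachidonic and linoleic acid (chr19:40026383-40062289, minus strand), stood at 21.2, 22.8 and 30.4 CPM in Western null and 151, 168 and 194 CPM in chow null livers. All 3 Western null libraries were far below all 3 chow null libraries, and the log2 fold change was -2.77 ± 0.35 (adjusted p = 0.000155). Cyp2c29 (chr19:39275488-39319157, plus strand), which forms epoxyeicosatrienoic acids from arachidonic acid, was counted at 205, 335 and 459 CPM in Western null, against 812, 1130 and 1090 CPM in chow null (-1.60 ± 0.31, adjusted p = 0.00328). Cyp2c23 (chr19:43993461-44017695, minus strand), another arachidonic acid epoxygenase, had 112, 92.0 and 165 CPM in Western null and 297, 499 and 327 CPM in chow null (-1.60 ± 0.31, adjusted p = 0.00333). For these 3 genes the groups did not overlap, and Cyp2c23 shares no 50-base word with another gene.

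Cyp2c50 (chr19:40078123-40102399, plus strand) fell to 147, 124 and 161 CPM in Western null, against 456, 395 and 361 CPM in chow null (-1.49 ± 0.34, adjusted p = 0.00964; 0.0611 without Western null replicate 2). Its neighbour Cyp2c37 (chr19:39980868-40000687, plus strand) stood at 48.4, 47.4 and 55.1 CPM in Western null and 198, 172 and 189 CPM in chow null, a log2 fold change of -1.88 ± 0.51 (adjusted p = 0.0285). The Western null values of Cyp2c37 lay close together and none reached the chow null range. Its call did not hold when any single Western null or chow null library was left out, with adjusted p = 0.0974, 0.0993 and 0.0698 without Western null replicates 1, 2 and 3, and 0.0905, 0.0522 and 0.0777 without chow null replicates 1, 2 and 3. Cyp2c40, which hydroxylates arachidonic acid and is read more in female liver (chr19:39755517-39801258, minus strand), had 0, 0 and 1 counts in Western null and 40, 5 and 37 counts in chow null. Summed and scaled by depth, it was 60.0 times higher in chow null (95% counting interval 10.5 to 2400), with adjusted p = 0.00402. Cyp2c69, named after its values were seen, was under the filter. It had no count in Western null livers and 32 counts in chow null, at least 7.80-fold lower with the floor of 3 counts over the group.

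The other tested Cyp2c genes did not pass in the edgeR fit of all 12 libraries. DESeq2 called Cyp2c39, and the edgeR fits without the filter and of only these groups called Cyp2c39 and Cyp2c70. Cyp2c70, which makes muricholic bile acids in mice, stood at 111, 207 and 175 CPM in Western null and 340, 274 and 300 CPM in chow null (log2 fold change -0.89 ± 0.37, adjusted p = 0.124). Cyp2c39, whose span is overlapped by other genes over 38.8% of its length, went the other way. It had 10.4, 2.73 and 6.74 CPM in Western null and 1.60, 0.565 and 2.79 CPM in chow null (1.75 ± 0.60, adjusted p = 0.0622). Cyp2c70 and Cyp2c39 were named after their values were seen. Summed over the subfamily, Cyp2c counts came to 870, 1070 and 1300 CPM in Western null, against 2620, 2900 and 2790 CPM in chow null. Hepatocyte marker sums were lower as well, at 47300 to 54400 CPM in Western null and 71800 to 105000 CPM in chow null, and their part in the P450 values was not tested.

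**Figure D2:**
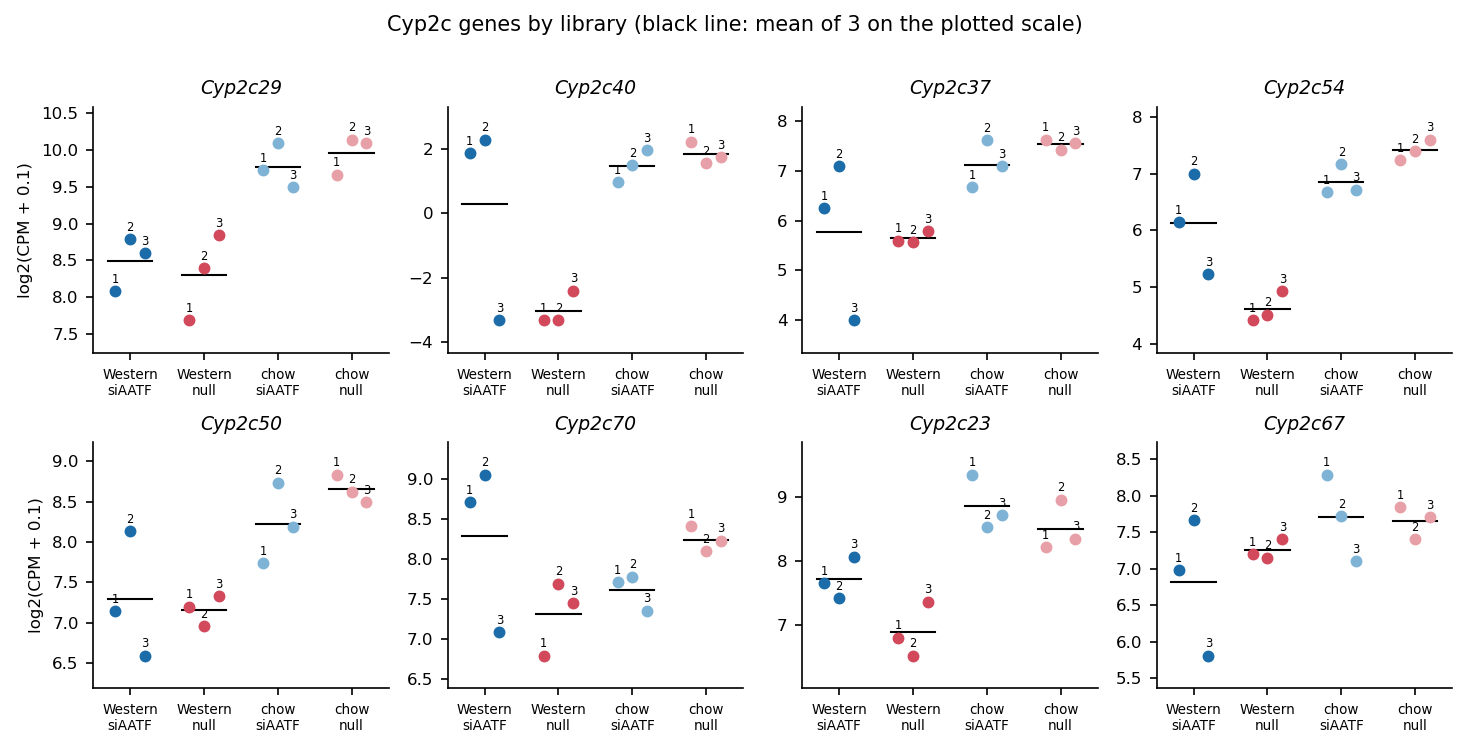
Levels of 8 Cyp2c genes in each library as log2(CPM + 0.1), in the order Western siAATF, Western null, chow siAATF and chow null, with replicate numbers over the points and a black line at the mean of 3. The Western null points of Cyp2c54, Cyp2c37, Cyp2c50 and Cyp2c29 lie under all chow points, and Western siAATF replicate 3 is the lowest of its group for all shown genes except Cyp2c29 and Cyp2c23.

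Outside Cyp2c, 2 of 3 tested Cyp2j genes fell, as did Cyp2u1. The third, Cyp2j6, had 68.1, 44.6 and 54.8 CPM in Western null and 63.1, 58.7 and 63.6 CPM in chow null (log2 fold change -0.15, adjusted p = 0.751). Cyp2j9 (chr4:96456661-96480748, minus strand), a fatty acid hydroxylase, had 0.987, 1.70 and 4.58 CPM in Western null, against 25.4, 20.9 and 27.5 CPM in chow null (log2 fold change -3.05 ± 0.50, adjusted p = 0.00116). Cyp2j5 (chr4:96515669-96552408, minus strand), an arachidonic acid epoxygenase of liver and kidney, stood at 192, 248 and 252 CPM in Western null and 504, 364 and 437 CPM in chow null (-0.91 ± 0.25, adjusted p = 0.0222). The call of Cyp2j5 was lost without Western null replicate 1, 2 or 3 (adjusted p = 0.123, 0.0757 and 0.056) and without chow null replicate 1 or 3 (0.0827 and 0.0725). Cyp2u1 (chr3:131084140-131097806, minus strand), which hydroxylates the end of long-chain fatty acids, had 19.3, 7.16 and 14.7 CPM in Western null and 39.4, 36.7 and 36.3 CPM in chow null (-1.46 ± 0.34, adjusted p = 0.0102; 0.0598 without Western null replicate 2). Cyp2d13 (chr15:82520951-82526246, minus strand) was the 1 of 5 tested Cyp2d genes that passed, at 34.6, 63.4 and 41.3 CPM in Western null and 68.7, 127 and 133 CPM in chow null (-1.24 ± 0.31, adjusted p = 0.0162). Its groups lay close, and the adjusted p was 0.0866 and 0.0697 without Western null replicates 1 and 3 and 0.0807 without chow null replicate 3.

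The Cyp2a genes moved the opposite way. Cyp2a5, the coumarin hydroxylase (chr7:26534764-26542689, plus strand), rose to 379, 543 and 677 CPM in Western null, against 138, 217 and 172 CPM in chow null (log2 fold change 1.61 ± 0.27, adjusted p = 0.00132). Cyp2a4, a testosterone hydroxylase read more in female liver (chr7:26006617-26014513, plus strand), had 18, 27 and 143 counts in Western null livers, against 0, 0 and 2 in chow null. After scaling this was a ratio of 129 (95% counting interval 35.1 to 1070; adjusted p = 0.00308). Reads of Cyp2a5 assigned to its copy would add to this count, and Cyp2a4 counts were 1.90% of those of Cyp2a5 in Western null and 0.0561% in chow null. Cyp2a22 (chr7:26631056-26638838, minus strand), whose span overlaps another gene over 51.8% of its length, stood at 14.8, 7.16 and 8.62 CPM in Western null, against 0.229, 0 and 0.174 CPM in chow null (5.65 ± 1.40, adjusted p = 0.0201). Its adjusted p was 0.0543 without Western null replicate 1 and 0.0934, 0.0525 and 0.108 without chow null replicates 1, 2 and 3. Cyp2a12, the fourth of the subfamily, had a log2 fold change of 0.24 ± 0.32 (adjusted p = 0.666). The span of Cyp2a12 is overlapped by another gene over 39.1% of its length, and 27.5% of its 50-base words were found in Cyp2a22.

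Cyp1b1, a hydroxylase of oestrogens and aromatic hydrocarbons induced by the aryl hydrocarbon receptor (chr17:80014369-80022490, minus strand), was also higher. It had 7.90, 3.07 and 3.77 CPM in Western null, against 0.229, 0 and 1.31 CPM in chow null (log2 fold change 2.73 ± 0.79, adjusted p = 0.0325). The adjusted p was 0.122, 0.0532 and 0.0665 without Western null replicates 1, 2 and 3, and 0.138 and 0.0522 without chow null replicates 1 and 2. The 7 stellate cell and fibroblast markers summed to 965 to 1350 CPM in Western null and 189 to 318 CPM in chow null, with Lrat at 0 in both. The 8 macrophage markers summed to 439 to 756 CPM in Western null and 182 to 256 CPM in chow null, with Cd5l at 0 in both. The part of these cells in the Cyp1b1 result was not tested.

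Cyp2b genes and Cyp3a genes gave 0 calls by the edgeR fit of all 12 libraries. Limma-voom called Cyp2b9, the edgeR fit of only these groups called Cyp2b9, Cyp3a13 and Cyp3a59, and the fit without the filter called Cyp2b9, Cyp2b13 and Cyp3a59. Cyp2b10, the standard target of CAR (chr7:25597083-25626049, plus strand), had 0.987, 1.02 and 1.44 CPM in Western null and 0.800, 5.08 and 4.44 CPM in chow null (log2 fold change -1.37 ± 0.70, adjusted p = 0.218). Cyp2b9, read more in female liver and named after its values were seen (chr7:25872775-25910086, plus strand), had 45.9, 37.5 and 28.7 CPM in Western null, against 0.914, 5.08 and 6.97 CPM in chow null. All 3 Western null libraries were higher, with a log2 fold change of 3.12 ± 2.15 and an adjusted p of 0.382 in the fit of all groups. Its near copy Cyp2b13 had 26 counts over the Western null libraries and 1 over chow null, a ratio of 35.6 (95% counting interval 5.84 to 1460), from 2 of the 3 Western null libraries.

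Cyp3a11, the main drug-oxidising Cyp3a form of mouse liver (chr5:145791417-145816664, minus strand), stood at 1870, 2480 and 5330 CPM in Western null and 2400, 1750 and 2010 CPM in chow null (log2 fold change 0.65 ± 0.78, 95% interval -1.07 to 2.37, adjusted p = 0.623). Cyp2f2, which oxidises naphthalene (chr7:26819380-26833085, plus strand), had 474, 632 and 478 CPM in Western null, against 679, 1020 and 750 CPM in chow null (-0.63 ± 0.39, adjusted p = 0.31). Cyp2d10 (chr15:82287046-82291449, minus strand) had 522, 628 and 613 CPM in Western null and 569, 1140 and 738 CPM in chow null (-0.47 ± 0.31, adjusted p = 0.33). With Cyp2c29 these were named for their mean CPM over all 12 libraries, which follows the counted length as well as the level. Of these 4 genes Cyp2c29 passed the test on diet and the other 3 did not.

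**Figure D3:**
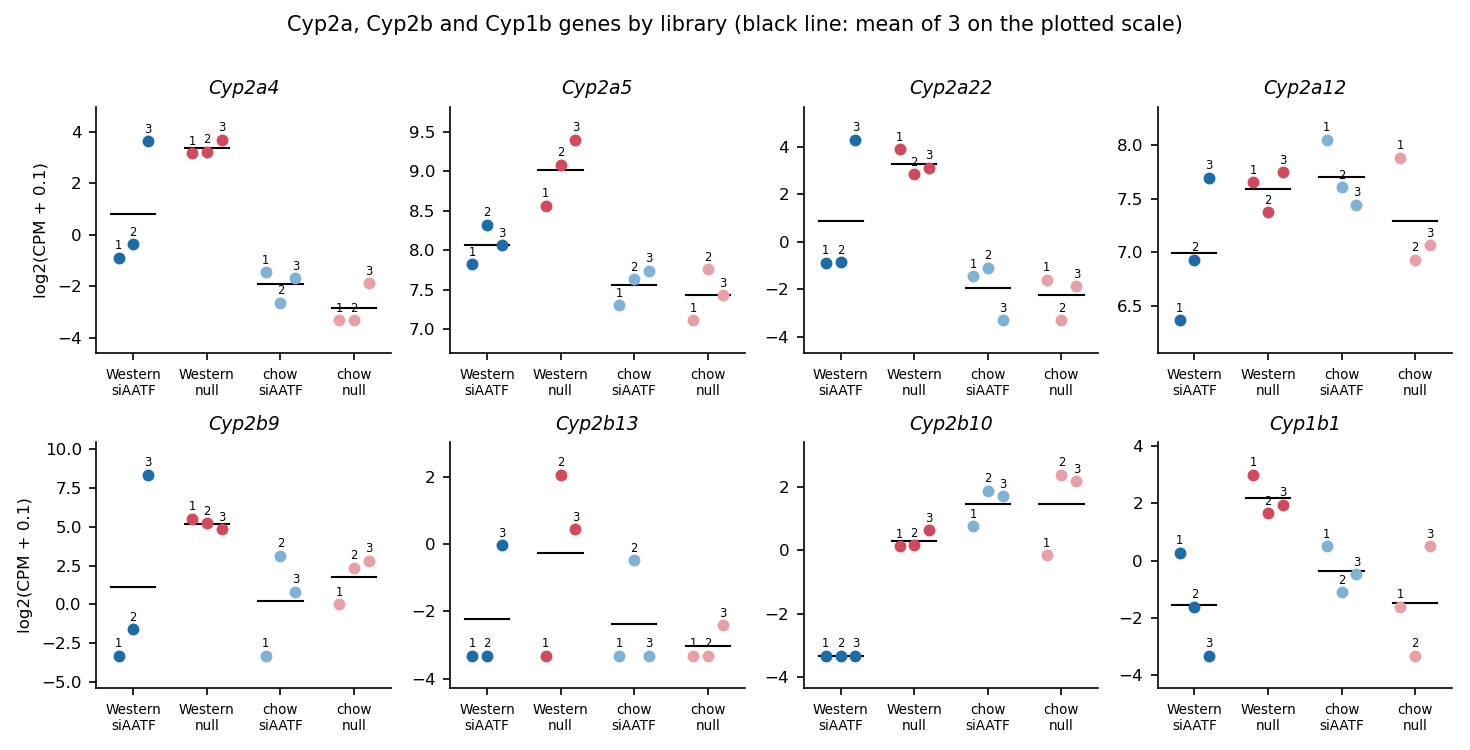
Levels of the 4 Cyp2a genes, Cyp2b9, Cyp2b13, Cyp2b10 and Cyp1b1 in each library as log2(CPM + 0.1), groups ordered Western siAATF, Western null, chow siAATF and chow null, with replicate numbers and a black line at the mean of 3. Western siAATF replicate 3 sits with or above the Western null libraries for Cyp2a4, Cyp2a22 and Cyp2b9, replicates 1 and 2 sit low, and Cyp2b10 is at 0 in all 3.

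Genes were also listed by the receptor known to induce them. Of 7 CAR-inducible genes, 1 rose (Cyp2a5) and 4 fell (Cyp2c29, Cyp2c37, Cyp2c54 and Cyp2c50) in Western null against chow null, where 6.44% of all genes were called higher and 6.77% lower. Their median log2 fold change was -1.49, against -0.03 over all genes. The tested Cyp2c genes had the same median. All 4 that fell are Cyp2c genes counted above, so receptor and subfamily cannot be told apart for them. The CAR-listed genes Cyp2c55 (log2 fold change 0.09 ± 0.73) and Cyp2b10 did not pass. Cyp2c23 and Cyp2c40, which are not on the CAR list, also fell. The part of the receptor was not tested. Of the 3 PXR-inducible genes 0 passed the edgeR test. Cyp3a11 was at 0.65 ± 0.78 and Cyp2b10 at -1.37 ± 0.70, both with overlapping groups. Cyp3a13 was at -0.71 ± 0.27 (adjusted p = 0.0985) and lower in all 3 Western null libraries. Of the 7 genes read more in female liver 3 could be tested, of which Cyp2a4 rose and Cyp2c40 fell.

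Western siAATF against Western null livers addresses what the silencing vector changed on the Western diet. By edgeR's test 2 of the 33 P450 genes passed, Cyp2c54 and Cyp2c40, both higher in the libraries labelled siAATF, and 0 were lower. Over all genes 0.871% passed, 0.310% higher and 0.561% lower. At an unadjusted p under 0.05 there were 14 P450 genes (42.4%, against 10.7% of all genes). The median log2 fold change was 0.12 over the 33 genes and 0.06 over all. The groups did not overlap for 5 genes higher and 5 lower (15.2% each), against 7.69% and 7.87% of all genes.

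Cyp2c54 stood at 70.8, 128 and 37.4 CPM in Western siAATF and 21.2, 22.8 and 30.4 CPM in Western null livers. All 3 Western siAATF libraries were higher (log2 fold change 1.65 ± 0.34, adjusted p = 0.0312). In the chow siAATF and chow null groups it stood at 102, 144 and 105 CPM and at 151, 168 and 194 CPM. Cyp2c40 had 16, 21 and 0 counts in Western siAATF, against 0, 0 and 1 in Western null, a ratio of 53.2 (95% counting interval 8.97 to 2160; adjusted p = 0.037). Its groups overlapped, because Western siAATF replicate 3 had none. Cyp2c69 had 5, 11 and 0 counts in Western siAATF and 0 in Western null, at least 7.66-fold higher on the summed counts. Its Western siAATF replicate 3 was thus at 0 like Western null. This comparison and the one on diet share the Western null libraries, so an opposite sign in both does not come from independent samples.

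Both calls held without Western siAATF replicate 3 and were lost without any other single library of the groups. For Cyp2c54 the adjusted p was 0.0664 and 0.11 without Western siAATF replicates 1 and 2, and 0.207, 0.166 and 0.104 without Western null replicates 1, 2 and 3. For Cyp2c40 it was 0.11 without Western siAATF replicate 1 or 2, and 0.145, 0.129 and 0.235 without Western null replicates 1, 2 and 3. With limma-voom neither passed (adjusted p = 0.0775 for Cyp2c54 and 0.214 for Cyp2c40), and voom called Cyp3a11 alone of the 33, as lower. DESeq2 called 7, with Cyp2c54, Cyp2c40 and Cyp3a13 higher and Cyp3a59, Cyp2b10, Cyp2a5 and Cyp1b1 lower. The share of all genes called by these tools is not given here.

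Western siAATF replicate 3 stood apart from its group in the P450 genes. In that library 19 of the 33 genes lay over 2-fold from the other two, against 15 for replicate 2, 8 for replicate 1 and 3 to 4 in each library of the other groups. Over all genes the shares were 22.6%, 18.3% and 7.80% in Western siAATF and 3.11% to 20.4% elsewhere. Cyp2b9 had 0, 0.227 and 328 CPM in Western siAATF replicates 1, 2 and 3, against 45.9, 37.5 and 28.7 CPM in Western null. Cyp2a4 had 0.442, 0.681 and 12.3 CPM, and Cyp2a22 0.442, 0.454 and 19.8 CPM, in the same Western siAATF replicates. Cyp3a11 had 92.4, 270 and 1380 CPM in them, against 1870, 2480 and 5330 CPM in Western null (log2 fold change -2.47 ± 0.82, adjusted p = 0.275). Replicate 3 held 1989409 counts, 0.871% of them 18S, while 18S took 19.8% and 50.8% in replicates 1 and 2. Lymphocyte markers summed to 7.92 CPM in replicate 3, against 42.7 and 68.1 CPM in replicates 1 and 2. Its macrophage, hepatocyte and endothelial marker sums were also the lowest of the 3. Its stellate cell and fibroblast sum and its cholangiocyte sum were the highest. The part of depth, 18S RNA and cell content in this split was not tested, nor was whether the library matches its label. Values of Western siAATF therefore rest on that label.

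Without Western siAATF replicate 3 the same fit called 9 P450 genes of 36 tested, 5 higher and 4 lower, against 3.34% of all genes. Those higher were Cyp2c40 (adjusted p = 0.00053), Cyp2c54 (log2 fold change 1.96 ± 0.28, adjusted p = 0.000282), Cyp2c70 (1.51 ± 0.26, 0.00167), Cyp3a13 (1.39 ± 0.24, 0.00209) and Cyp2c37 (1.06 ± 0.29, 0.0448). Those lower were Cyp3a11 (-4.17 ± 0.57, 0.000935), Cyp2a4 (-4.20 ± 0.68, 0.00107), Cyp2a22 (-4.43 ± 0.74, 0.00142) and Cyp2c55, at 0 counts in both remaining libraries (adjusted p = 0.00924). The library was chosen for removal after these values were seen, so the counts describe how much 1 library decides. Replicate 3 stood apart in these same genes, so the share of all genes is not an even background for them.

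Several genes had groups that did not overlap without passing the test on all libraries. Cyp3a13 (chr5:137891195-137923872, minus strand), named after its values were seen, had 210, 291 and 130 CPM in Western siAATF and 79.5, 91.7 and 112 CPM in Western null (log2 fold change 1.15 ± 0.28, adjusted p = 0.0667). Cyp2d13 had 106, 67.2 and 125 CPM in Western siAATF and 34.6, 63.4 and 41.3 CPM in Western null (1.09 ± 0.31, adjusted p = 0.144). Cyp2j5 had 302, 497 and 390 CPM in Western siAATF, against 192, 248 and 252 CPM in Western null (0.78 ± 0.25, adjusted p = 0.201). Cyp2c23 had 202, 171 and 269 CPM in Western siAATF and 112, 92.0 and 165 CPM in Western null (0.79 ± 0.30, adjusted p = 0.317). These 4 were higher in all 3 libraries labelled siAATF.

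On the lower side, Cyp2a5 stood at 226, 320 and 268 CPM in Western siAATF and 379, 543 and 677 CPM in Western null (log2 fold change -0.98 ± 0.26, adjusted p = 0.122). Cyp1b1 had 1.11, 0.227 and 0 CPM in Western siAATF, against 7.90, 3.07 and 3.77 CPM in Western null (-3.13 ± 0.90, adjusted p = 0.144). The stellate cell and fibroblast markers summed to 270 to 669 CPM in Western siAATF and 965 to 1350 CPM in Western null, and the macrophage markers to 265 to 554 CPM and 439 to 756 CPM. Their part in the Cyp1b1 values was not tested. Cyp2b10 had 0 counts in Western siAATF and 21 in Western null, at least 4.87-fold lower on the summed counts (adjusted p = 0.147). The Western null libraries held 2, 3 and 16 of these, replicates 1 and 2 at or under the floor of 3 counts. Cyp3a59, named after its values were seen, had 5.31, 10.9 and 14.5 CPM in Western siAATF and 27.2, 37.8 and 50.7 CPM in Western null (-1.97 ± 0.57, adjusted p = 0.165).

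Genes called on diet but with intervals around 0 for the vector included Cyp2c29, at 270, 441 and 388 CPM in Western siAATF and 205, 335 and 459 CPM in Western null (log2 fold change 0.14, 95% interval -0.50 to 0.77). Cyp2u1 had 11.3, 14.3 and 14.5 CPM in Western siAATF and 19.3, 7.16 and 14.7 CPM in Western null (-0.03, -0.78 to 0.71). Cyp2c50 had 141, 281 and 96.4 CPM in Western siAATF, against 147, 124 and 161 CPM in Western null (0.27, -0.44 to 0.98). Cyp2c37 had 76.1, 137 and 15.8 CPM against 48.4, 47.4 and 55.1 CPM in Western null (0.61, -0.47 to 1.69), and Cyp2j9 had 3.32, 8.40 and 1.76 CPM against 0.987, 1.70 and 4.58 CPM (0.67, -0.47 to 1.81). Among the genes named for their mean CPM, Cyp2f2 had 448, 232 and 1040 CPM in Western siAATF and 474, 632 and 478 CPM in Western null (0.12 ± 0.39), and Cyp2d10 had 565, 455 and 906 CPM against 522, 628 and 613 CPM (0.13 ± 0.31). For both, replicate 3 of Western siAATF was the highest of the 6 libraries.

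**Figure D4:**
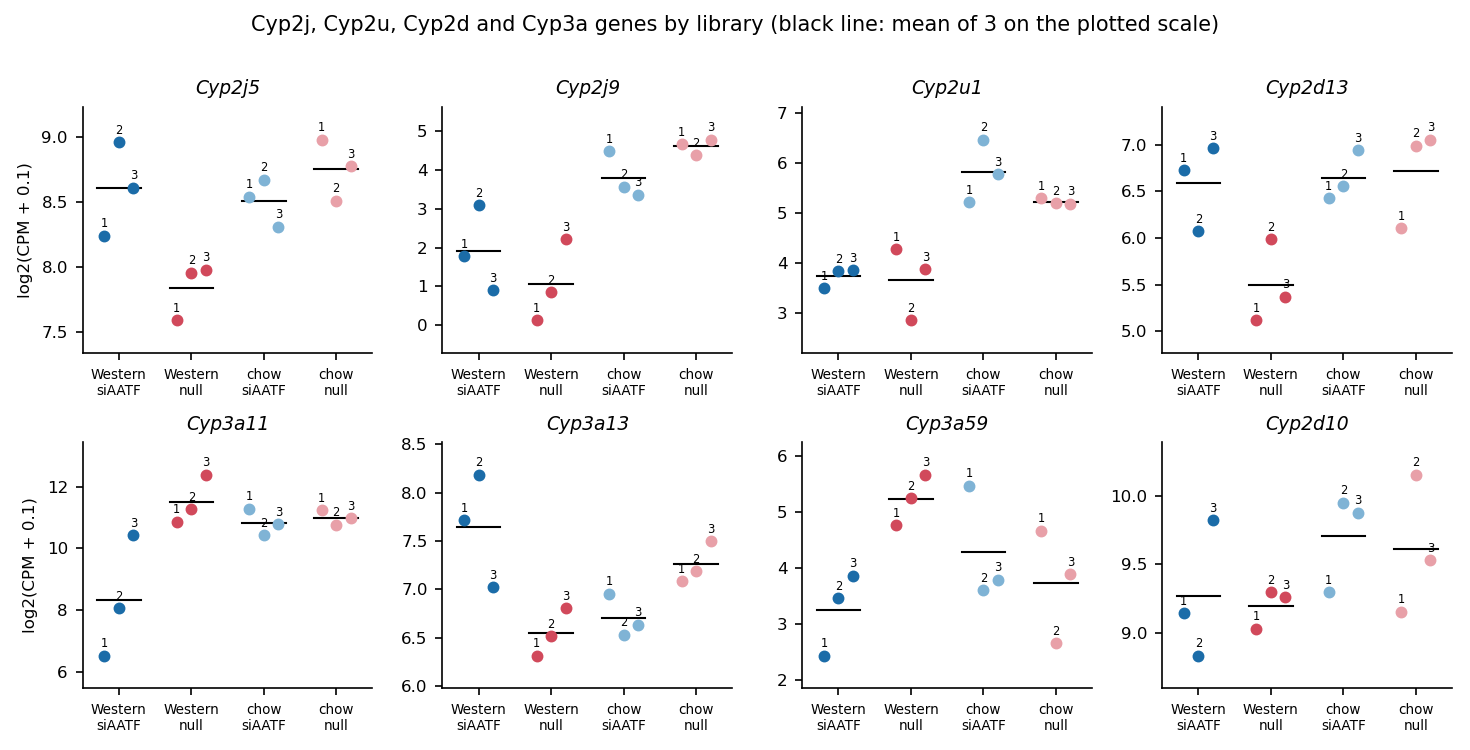
Levels of Cyp2j5, Cyp2j9, Cyp2u1, Cyp2d13, Cyp3a11, Cyp3a13, Cyp3a59 and Cyp2d10 in each library as log2(CPM + 0.1), groups ordered Western siAATF, Western null, chow siAATF and chow null, with replicate numbers and a black line at the mean of 3. All 6 Western points of Cyp2j9 and of Cyp2u1 lie under all 6 chow points, and Cyp3a11 spans 92.4 to 1380 CPM within Western siAATF.

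In chow siAATF against chow null livers, the same vector question on chow, 0 of the 33 P450 genes passed edgeR's test, as did 0% of all 11934 genes. At an unadjusted p under 0.05 there was 1, Cyp2u1, at 37.0, 88.3 and 54.8 CPM in chow siAATF and 39.4, 36.7 and 36.3 CPM in chow null (log2 fold change 0.69 ± 0.32, adjusted p = 1). DESeq2 and limma-voom also called 0. Groups did not overlap for 3 genes lower in chow siAATF (9.09%, against 4.32% of all genes) and 0 higher (against 4.25%). These were Cyp2c54 (-0.55 ± 0.33), Cyp2c70 (-0.62 ± 0.37) and Cyp3a13 (-0.55 ± 0.27), each with adjusted p = 1. Cyp2c70 stood at 210, 220 and 164 CPM in chow siAATF and 340, 274 and 300 CPM in chow null, and Cyp3a13 at 124, 92.5 and 99.3 CPM and 136, 146 and 181 CPM.

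The intervals on chow show what size of change they leave room for. For Cyp2a5, at 158, 198 and 214 CPM in chow siAATF and 138, 217 and 172 CPM in chow null, the 95% interval of the log2 fold change was -0.44 to 0.67. For Cyp2c29, at 845, 1090 and 720 CPM in chow siAATF and 812, 1130 and 1090 CPM in chow null, it was -0.83 to 0.44. For Cyp3a11, at 2500, 1370 and 1760 CPM in chow siAATF and 2400, 1750 and 2010 CPM in chow null, it was wider, at -1.84 to 1.59.

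Whether the vector acted differently on the diets was tested as an interaction, Western siAATF minus Western null less chow siAATF minus chow null. Of the 33 P450 genes 0 passed edgeR's test, against 0.193% of all genes (0.101% higher and 0.0922% lower), and 11 had an unadjusted p under 0.05 (33.3%, against 9.16% of all genes). Limma-voom called 0, and DESeq2 called 3, Cyp2c54, Cyp2c40 and Cyp3a13, all higher, with their shares over all genes not given here. By edgeR the interaction was 2.20 ± 0.47 on the log2 scale for Cyp2c54 (adjusted p = 0.0784) and 1.71 ± 0.39 for Cyp3a13 (adjusted p = 0.0982), and Cyp2c40 had adjusted p = 0.108. Without Western siAATF replicate 3 edgeR called 7 of 36, against 2.38% of all genes: Cyp2c54, Cyp2c40, Cyp2c70 and Cyp3a13 higher and Cyp3a11, Cyp2a22 and Cyp2c55 lower. That library was left out because its P450 values stood apart, so the share of all genes is not an even background.

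Western siAATF against chow siAATF livers gives the diet comparison under the silencing vector. Of the 33 genes 3 fell and 0 rose by edgeR's test, against 0.721% and 0.763% of all genes (1.48% in either direction). Cyp2u1 had 11.3, 14.3 and 14.5 CPM in Western siAATF and 37.0, 88.3 and 54.8 CPM in chow siAATF (log2 fold change -2.18 ± 0.34, adjusted p = 0.00501). Cyp2c29 had 270, 441 and 388 CPM in Western siAATF, against 845, 1090 and 720 CPM in chow siAATF (-1.27 ± 0.30, adjusted p = 0.0461). Cyp2b10 had 0, 0 and 0 counts in Western siAATF, against 6, 58 and 15 in chow siAATF, at least 11.9-fold lower (adjusted p = 0.0297). For all 3 the groups did not overlap. Counted without the test, 5 genes were lower without overlap (15.2%, against 8.36% of all genes) and 4 higher (12.1%, against 9.24%).

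Of these calls that of Cyp2u1 held when any single library was left out. The call of Cyp2b10 was lost without Western siAATF replicate 1 or 2 (adjusted p = 0.0908 and 0.0599) and without chow siAATF replicate 2 or 3 (0.115 and 0.0608). That of Cyp2c29 was lost without Western siAATF replicate 1 (0.172) and without chow siAATF replicate 1, 2 or 3 (0.112, 0.238 and 0.0713). Without Western siAATF replicate 3 there were 11 calls of 36 tested, 2 higher (Cyp3a13 and Cyp2c70) and 9 lower, against 5.95% of all genes. Here too the removal was chosen after the P450 values were seen, and the share of all genes is not an even background.

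Of the 4 Cyp2a genes, Cyp2a4, Cyp2a22 and Cyp2a5 were higher in all 3 Western siAATF libraries than in chow siAATF, without passing the test. For Cyp2a4 and Cyp2a22, Western siAATF replicates 1 and 2 were at or under the floor of 3 counts, so the difference rests on replicate 3. Cyp2a12 had 82.3, 122 and 207 CPM in Western siAATF and 265, 195 and 174 CPM in chow siAATF (log2 fold change -0.63 ± 0.32, adjusted p = 0.371), and it was among the 9 called lower without Western siAATF replicate 3. Cyp2a4 had 2, 3 and 28 counts in Western siAATF and 1, 1 and 1 in chow siAATF, a ratio of 24.4 (95% counting interval 7.64 to 124; adjusted p = 0.0738). Cyp2a22 had 2, 2 and 45 counts (0.442, 0.454 and 19.8 CPM) in Western siAATF. In chow siAATF it had 1, 6 and 0 counts (0.265, 0.369 and 0 CPM), with adjusted p = 0.128 by edgeR's test. Cyp2a5 had 226, 320 and 268 CPM in Western siAATF, against 158, 198 and 214 CPM in chow siAATF (log2 fold change 0.51 ± 0.26, adjusted p = 0.367). Cyp2j9 had 3.32, 8.40 and 1.76 CPM against 22.2, 11.8 and 10.2 CPM in chow siAATF (-1.61 ± 0.48, adjusted p = 0.11). Cyp2c23 had 202, 171 and 269 CPM against 652, 371 and 420 CPM (-1.17 ± 0.30, adjusted p = 0.0642). The Cyp2c sum came to 1400, 2040 and 1030 CPM in Western siAATF and 2580, 2760 and 2060 CPM in chow siAATF.

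**Figure D5:**
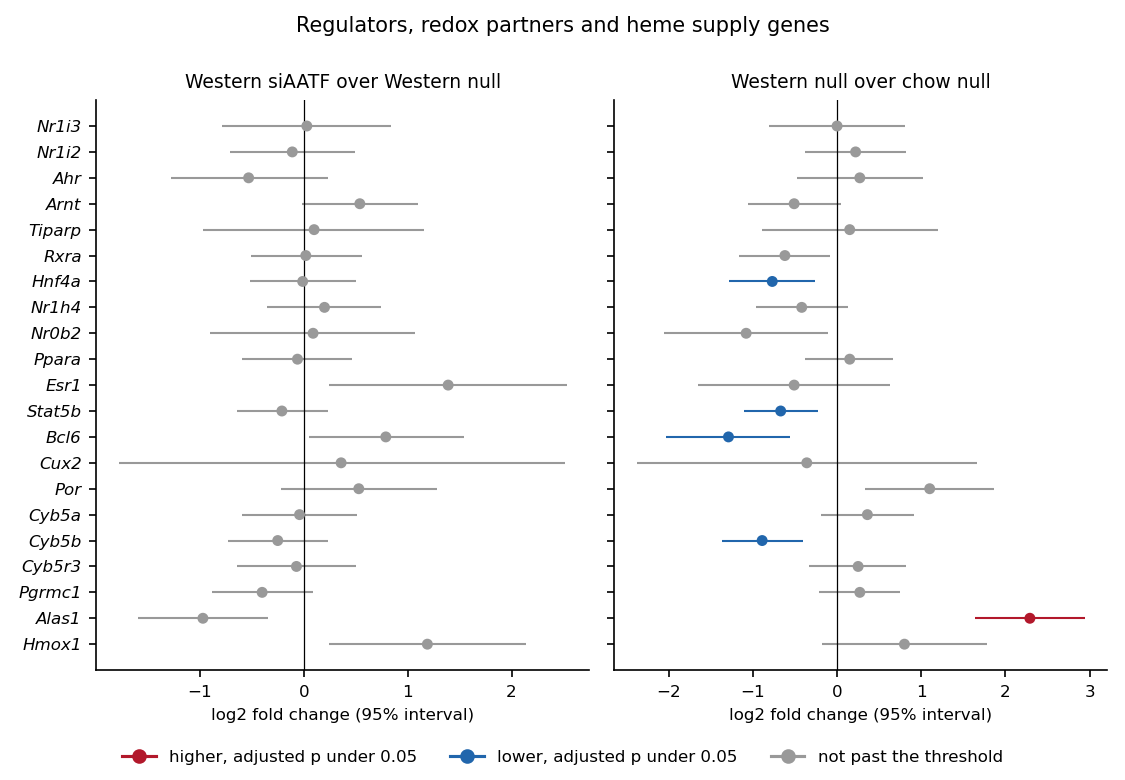
Log2 fold changes with 95% intervals of 14 transcription factors and related regulators and 7 redox partner and heme genes, for Western siAATF over Western null (left) and Western null over chow null (right); colours mark genes past the adjusted p threshold of 0.05. Alas1 is higher and Hnf4a, Stat5b, Bcl6 and Cyb5b are lower in the right panel, and 0 of the 21 are coloured in the left panel, which shares the Western null libraries.

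The receptors Nr1i3, Nr1i2 and Ahr, which switch these genes on, gave 0 calls in the 5 tests. In Western null over chow null the log2 fold change of Nr1i3 (CAR) had a 95% interval of -0.81 to 0.81, with 68.1, 117 and 67.0 CPM in Western null and 43.1, 109 and 101 CPM in chow null. Nr1i2 (PXR) stood at 103, 93.7 and 117 CPM in Western null, against 68.0, 95.4 and 108 CPM in chow null (0.22 ± 0.28, adjusted p = 0.657). Ahr, the aryl hydrocarbon receptor, stood at 55.8, 62.4 and 41.5 CPM in Western null, against 43.4, 28.8 and 57.4 CPM in chow null (0.27 ± 0.36, adjusted p = 0.656). In Western siAATF over Western null the log2 fold changes were 0.03 ± 0.38 for Nr1i3, -0.11 ± 0.28 for Nr1i2 and -0.53 ± 0.36 for Ahr, with adjusted p = 0.99, 0.926 and 0.662.

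Of the 14 regulators tested out of 15 listed, 3 fell and 0 rose in Western null against chow null, beside 6.77% lower and 6.44% higher over all genes. Their median log2 fold change was -0.46, against -0.03 over all genes. Hnf4a, a nuclear receptor that maintains hepatocyte gene expression, had 424, 341 and 387 CPM in Western null and 546, 793 and 625 CPM in chow null (log2 fold change -0.77 ± 0.24, adjusted p = 0.0451). Stat5b, the growth hormone signal carrier, had 63.2, 59.3 and 63.0 CPM in Western null, against 87.5, 112 and 96.4 CPM in chow null (-0.67 ± 0.21, adjusted p = 0.0409). Bcl6, a repressor of female-biased genes in male liver, had 11.8, 10.6 and 12.1 CPM in Western null, against 19.1, 35.6 and 31.5 CPM in chow null (-1.29 ± 0.35, adjusted p = 0.022). Under the silencing vector Stat5b also passed, at 59.9, 44.9 and 55.9 CPM in Western siAATF and 89.4, 104 and 100 CPM in chow siAATF (-0.87 ± 0.21, adjusted p = 0.0437). Counted with the redox and heme genes, the 5 calls on diet under the null vector (1 higher, 4 lower) came to 1 (higher) without any 1 of the Western null libraries, to 3 without chow null replicate 1 or 2 and to 2 without chow null replicate 3. The 4 calls of Western siAATF against chow siAATF in these lists (2 higher and 2 lower of 21, beside 0.763% and 0.721% of all genes) came to 2 without Western siAATF replicate 1 or 2, 6 without replicate 3, and 2, 0 and 1 without chow siAATF replicates 1, 2 and 3.

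Of the 7 redox partner and heme genes 1 rose and 1 fell in Western null against chow null, beside 6.44% and 6.77% of all genes. Alas1, the first enzyme of heme synthesis, rose to 1070, 1800 and 1640 CPM in Western null, against 209, 347 and 367 CPM in chow null (log2 fold change 2.29 ± 0.31, adjusted p = 0.000245). It had 812, 866 and 632 CPM in Western siAATF, against 407, 254 and 251 CPM in chow siAATF (1.34 ± 0.30, adjusted p = 0.0326). Against Western null, Western siAATF was lower in all 3 libraries without passing (-0.97 ± 0.30, adjusted p = 0.177). Cyb5b, an outer mitochondrial cytochrome b5, fell to 183, 185 and 185 CPM in Western null, against 390, 335 and 302 CPM in chow null (-0.89 ± 0.23, adjusted p = 0.0167), and to 157, 151 and 156 CPM in Western siAATF, against 300, 481 and 327 CPM in chow siAATF (-1.26 ± 0.23, adjusted p = 0.0134). Hmox1, which breaks heme down, had 69.9, 55.8 and 11.4 CPM in Western siAATF and 14.3, 8.56 and 10.7 CPM in chow siAATF (2.08 ± 0.46, adjusted p = 0.0335); its groups overlapped through replicate 3. Por, the oxidoreductase that feeds electrons to every microsomal P450, stood at 367, 486 and 633 CPM in Western null and 200, 274 and 223 CPM in chow null (1.10 ± 0.36, adjusted p = 0.0537). In Western siAATF it had 450, 453 and 1250 CPM, again with replicate 3 the highest.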

How the data were processed

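Counts of reads per gene are whole numbers as deposited by the authors. The submitters' processing notes name STAR 2.7.11, featureCounts 2.0.1, R 4.3.2, DESeq2 1.42.0 and the build GRCm39. Settings for strand and multi-mapping reads were not given in these sources. From the counts, 1 edgeR 4.0.16 fit (R 4.3.3, filterByExpr by group, TMM, robust quasi-likelihood, 8 residual degrees of freedom) of all 12 libraries gave 5 comparisons, with Benjamini-Hochberg adjustment over 11934 genes and a threshold of 0.05. Standard errors are the absolute log2 fold change over the root of F. Fits with DESeq2 1.42.0, limma 3.58.1 voom, other size factors, no filter, a replicate block and left-out libraries are alternatives. The scripts were tested on simulated data. Replicates of a group differed beyond counting noise, with a chi-square of 10.3 to 432 per degree of freedom, so none was treated as a second copy of another library; repeat libraries of 1 animal could differ as much.

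The P450 genes and all lists were chosen with earlier results of these data known. Described in full are the 12 of 15 called genes with the smallest adjusted p in any comparison and the 4 genes of highest mean CPM, with Cyp2c37, Cyp2b10 and Cyp1b1 as the other called genes; Nr1i3, Nr1i2, Ahr and Por are always named. Cyp2b9, Cyp2b13, Cyp2c69, Cyp2c70, Cyp2c39, Cyp2a12, Cyp2c55, Cyp2j6, Cyp3a13, Cyp3a59 and the values beyond the calling comparison were named after being seen. Promoters were aligned pairwise with biopython 1.88, and shared 50-base words were counted in GRCm38 transcripts.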

Additional observations from a re-analysis of the deposited data

How the results depend on the processing

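The count of P450 genes past the threshold for Western null against chow null was 14, and it was 14 with DESeq2 size factors in edgeR, with the 18S gene left out and with the replicate block, 15 with DESeq2, 15 with limma-voom, 20 without the filter and 19 with only the groups compared. It moved to 8 when libraries with over 25% of counts in 18S were left out, which leaves 1 chow null library, assumed to vary like the others. With 1 library left out it ran from 10 to 11. For Western siAATF against Western null the 2 calls moved to 13 without the filter, 7 with DESeq2, 1 with limma-voom, 0 with only the groups compared, 0 with the replicate block and 1 without the high-18S libraries, and ran from 0 to 9 with 1 library left out. For Western siAATF against chow siAATF the 3 calls moved to 14 without the filter, 8 with DESeq2 and 0 with only the groups compared, were 2 with the replicate block, and ran from 1 to 11. For the interaction the 0 calls moved to 7 without the filter and 3 with DESeq2, were 0 with the replicate block, and ran from 0 to 7. For chow siAATF against chow null the count was 0 in every alternative run. The cause was not tested for any of these moves. Shares of all genes called in these alternative fits are not given here, so the counts cannot be read as an excess of P450 genes. Correlations of same-numbered deviations from the group means ran from -0.15 to 0.26. With 3 libraries a group these values cannot show whether replicate numbers pair the samples. Of 19 single calls, 6 held in every alternative run (Cyp2c54, Cyp2j9, Cyp2a5, Cyp2c29, Cyp2c23 and Cyp2c40, in Western null against chow null), and 0 changed sign. Regulator and redox genes called in Western null against chow null went to 4 of 5 with other size factors and to 3 with the block, and in Western siAATF against chow siAATF the block gave 1 of 4. Other size factors moved the median log2 fold change of all genes by at most 0.02, and limma-voom by at most 0.03. Genes near 1 count a library are limited by depth.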
